A study of Mus musculus with 11 samples.

Results

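The respiratory chain transcripts described here are those of 44 nuclear genes, chosen by name from a list of subunits of complexes I to IV and of cytochrome c, among the 24411 genes counted in mouse testis. They comprise 20 genes of complex I, 4 of complex II, 6 of complex III, 12 of complex IV and 2 of cytochrome c, and all 44 passed the filter on low counts in each comparison. RNA was taken from whole testes of mice aged 20 weeks, and 4 wild-type mice (WT), labelled C57Bl/6J, 4 Irp1-/- mice and 3 Irp2-/- mice were sequenced. Irp1-/- mice lack iron regulatory protein 1 (IRP1, gene Aco1) in the whole body, come from founders on the C57Bl/6J background and were bred with WT littermates from heterozygous parents, and Irp2-/- mice lack iron regulatory protein 2 (gene Ireb2), a line whose strain and origin the sources used here do not give.

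The respiratory chain passes electrons from NADH and succinate through complexes I and II to ubiquinone, and on through complex III and cytochrome c to complex IV, which reduces oxygen. Complexes I, II and III hold iron-sulfur clusters, complexes III and IV, among other parts of the chain, hold heme, and complex IV also holds copper. Male germ cells replace or supplement some subunits with testis forms encoded by separate genes, among them Cyct (testis cytochrome c), Cox6b2, Cox7b2 and Cox8c, whose partners in most other tissues are Cycs, Cox6b1, Cox7b and Cox8a.

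Total counts lay between 15902473 and 22451417 per sample. The targeted genes were lower in the animals labelled as lacking them. Aco1 had 7.93 to 9.13 CPM (counts scaled to library size, with TMM factors) in Irp1-/- samples, against 9.80 to 12.9 CPM in those of WT (log2 fold change -0.45, edgeR adjusted p = 0.0158), and Ireb2 had 61.8 to 62.7 CPM in Irp2-/- samples, against 131 to 144 CPM in those of WT (log2 fold change -1.16, edgeR adjusted p = 2.84e-13). Transcripts of both thus remained, and Aco1 differed by less than Ireb2. Every sample carried germ cell, Sertoli and Leydig cell markers. The epididymal markers Lcn5 and Spint4 and the muscle and brown fat subunit Cox8b had no count in any of the 11 samples. One sample, Irp1-/- replicate 6, carries the letter R in its label where the other 10 carry L, and the meaning of the letter is not stated. In bulk RNA, fewer cells of a type and less RNA per cell cannot be told apart. WT replicates 1 and 2 stood apart in some markers of Leydig cells, which make androgens. Cyp17a1 had 95.5 and 91.7 CPM there, against 238 and 192 CPM in WT replicates 3 and 4 and 176 to 300 CPM in the 7 knockout samples, and Cyp11a1 had 34.6 and 29.0 CPM against 69.5 to 113 CPM in the other 9 samples (genes chosen after their values were seen). Lhcgr was also low there (2.41 and 1.86 CPM, against 3.54 to 5.57 CPM in the knockout samples). The other listed Leydig cell markers did not set both libraries apart. Insl3 had 490 and 483 CPM there, inside the 377 to 551 CPM of the knockout samples. Hsd3b1 had 29.9 and 35.8 CPM, inside their 24.6 to 53.0 CPM. Star had 55.9 and 41.8 CPM, against their 50.7 to 119 CPM. Results against WT that rest on WT replicates 1 and 2 are given with and without them. The labels do not say how the 4, 4 and 3 samples were spread over litters or days, so p-values measure the spread between these samples.

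The testis forms differ in sequence from their partners, which bears on whether reads can be assigned to the right gene. Over their aligned coding bases (GENCODE M21, GRCm38), Cyct and Cycs were 77.4% identical, Cox7b2 and Cox7b 65.4%, Cox6b2 and Cox6b1 59.5%, and Cox8c and Cox8a 47.1%. The longest identical run was 14 bases, and no stretch of 50 bases, the length of 1 read, was common to any pair. This covers the pairs only. Of the 50-base stretches of Cycs, 28.2% occur in genes other than Cyct, so part of its reads may have been assigned elsewhere. The bearing of this on the level of Cycs and on the Cyct to Cycs ratio was not tested. The most alike 60 coding bases of 3 pairs are shown, with differing bases in capitals, because they are where a read would most easily be misplaced. The Cyct and Cycs stretches had 53 identical bases and both began at base 7 of the coding sequence.
Cyct: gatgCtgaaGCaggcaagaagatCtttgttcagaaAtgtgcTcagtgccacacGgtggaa
Cycs: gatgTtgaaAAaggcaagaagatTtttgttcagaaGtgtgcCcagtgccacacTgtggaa
Cox6b2: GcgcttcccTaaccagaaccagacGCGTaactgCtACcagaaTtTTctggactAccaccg
Cox6b1: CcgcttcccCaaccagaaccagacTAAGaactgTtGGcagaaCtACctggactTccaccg
Cox7b2: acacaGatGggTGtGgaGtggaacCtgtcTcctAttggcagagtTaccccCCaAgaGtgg
Cox7b: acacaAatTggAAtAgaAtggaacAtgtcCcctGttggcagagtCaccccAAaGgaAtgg

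On GRCm38, Cyct lies on chromosome 2 (76353942 to 76360453) and Cycs on chromosome 6 (50562563 to 50566569). Cox6b2 (4751792 to 4753094) and Cox6b1 (30616971 to 30626114) both lie on chromosome 7. Cox7b2 lies on chromosome 5 (71442823 to 71548205) and its partner Cox7b on the X chromosome (106015700 to 106022450). Cox8c lies on chromosome 12 (102899306 to 102900534) and Cox8a on chromosome 19 (7215158 to 7217616).

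Transcript levels of the 44 genes were first ordered within WT testis. Levels between genes are given as CPM per kilobase of annotated exon, a scale on which Cox8c was the highest of the 44 genes, with 403 ± 20.4 CPM per kilobase (SD, n = 4). Cox8c encodes the testis form of subunit VIII of complex IV. It was followed by 3 subunits of complex IV that germ cells share with other tissues, Cox4i1 with 221 ± 5.12, Cox5a with 192 ± 5.65 and Cox7a2 with 175 ± 7.21 CPM per kilobase (SD, n = 4). The testis forms Cox6b2 and Cox7b2 came next, with 160 ± 5.41 and 149 ± 2.46 CPM per kilobase (SD, n = 4), and the ranges of Cox7b2 and of the complex III core protein Uqcrc1 (145 ± 4.17) overlapped. The lowest of the 44 was Cox7b, the X-linked partner of Cox7b2, with 4.11 ± 0.258 CPM per kilobase (SD, n = 4). Cycs ranked 42 of 44 with 13.3 ± 1.03 CPM per kilobase, whereas Cyct ranked 11 with 88.1 to 99.0 CPM per kilobase in the 4 WT samples. Cox8c and Cox4i1 were the highest and Cox7b the lowest also in Irp1-/- and in Irp2-/- testes. These levels depend on the annotated exon length, which is 3123 bases for Cycs and 655 bases for Cyct. With the length of the longest coding transcript in its place, the testis form Cox6b2 stood at 203 CPM per kilobase, above Cox5a and Cox7a2, whose values did not change, so the order of the testis forms and the shared subunits depends on the length used.

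**Figure D1:**
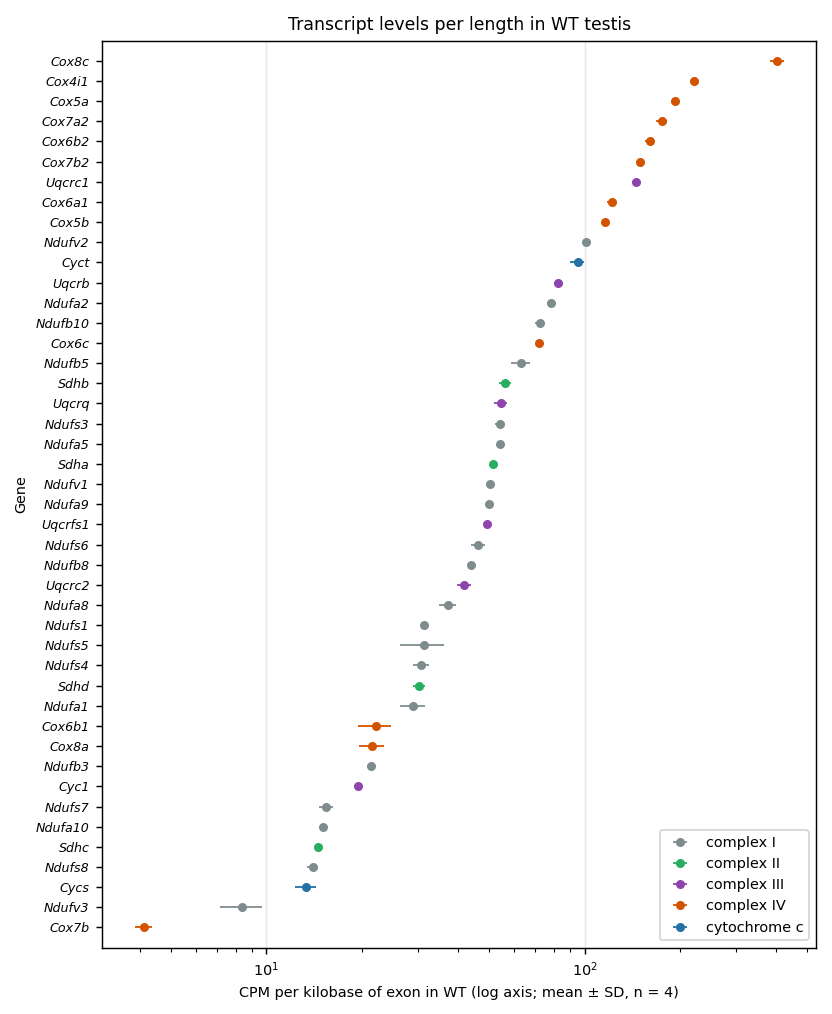
Transcript level of each of the 44 genes in WT testis as CPM per kilobase of annotated exon, on a log axis; points are means and bars SD over 4 WT mice, coloured by complex. Cox8c is highest at 403, and the partners Cycs and Cox7b lie at 13.3 and 4.11, near the low end.

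The balance between each testis form and its partner was then compared between genotypes, as the ratio of their counts in the same sample, which needs no scaling between libraries. In WT testes the ratio was 19.7 ± 1.39 for Cox7b2 to Cox7b, 15.7 ± 2.08 for Cox8c to Cox8a, 8.83 ± 1.13 for Cox6b2 to Cox6b1 and 1.51 ± 0.179 for Cyct to Cycs (SD, n = 4). Per kilobase of exon, the same ratios were 36.3, 18.9, 7.36 and 7.19, so that the testis form was the more abundant in all 4 pairs on both scales. The testis form made up 95.1%, 94.0% and 89.7% of the counts of its pair in WT for Cox7b2, Cox8c and Cox6b2, and 57.5% to 63.8% for Cyct.

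The Cox8c to Cox8a ratio was the one for which Irp1-/- and WT samples did not overlap. It was 11.4, 13.0, 12.6 and 14.0 in Irp1-/- replicates 1, 2, 7 and 6, and 18.5, 16.3, 14.0 and 14.2 in WT replicates 1 to 4, against 14.2, 14.2 and 17.8 in the 3 Irp2-/- samples. The highest Irp1-/- value lay just under the lowest WT value. The mean log2 ratio was 3.67 ± 0.12 in Irp1-/- and 3.97 ± 0.19 in WT (SD, n = 4 each), a difference of -0.30 (p = 0.0286 by an exact permutation test, two-sided, which cannot go lower with 4 samples on each side, and 0.343 after Benjamini-Hochberg adjustment over the 12 tests of 4 pairs and 3 genotype pairs). The difference thus did not pass the adjusted threshold of 0.05. All 4 Irp1-/- samples also lay below the 3 Irp2-/- samples, with a difference of -0.27 in the log2 ratio (exact permutation p = 0.0571, adjusted 0.343). The highest WT ratios, 18.5 and 16.3, were those of WT replicates 1 and 2, the libraries low in Cyp17a1 and Cyp11a1. Without them the difference from WT was -0.15 (exact permutation p = 0.20, n = 4 and 2, where the smallest possible p is 0.0667).

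For Cyct to Cycs the Irp1-/- ratios lay between 1.32 and 1.38 and the Irp2-/- ratios between 1.36 and 1.41, while WT ratios ranged from 1.35 to 1.76. The difference of the log2 ratio was -0.15 between Irp1-/- and WT (exact permutation p = 0.0857, adjusted 0.343), -0.07 without WT replicate 1 and -0.03 without WT replicates 1 and 2. For Cox7b2 to Cox7b it was -0.25 (exact permutation p = 0.20, adjusted 0.343), -0.41 without Irp1-/- replicate 6 and -0.16 without Irp1-/- replicate 1, and Irp1-/- replicate 6 with a ratio of 22.7 stood above the WT range of 17.9 to 21.3 while the other 3 Irp1-/- samples stood below it. For Cox6b2 to Cox6b1 the difference was -0.07 (exact permutation p = 0.51, adjusted 0.686) and 0.09 without WT replicates 1 and 2. None of the 12 differences passed after adjustment, the lowest adjusted p being 0.343. With 3 or 4 samples a group, an exact p cannot be lower than 0.0286, so a single ratio that separates the genotypes cannot pass an adjustment over 12 tests.

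**Figure D2:**
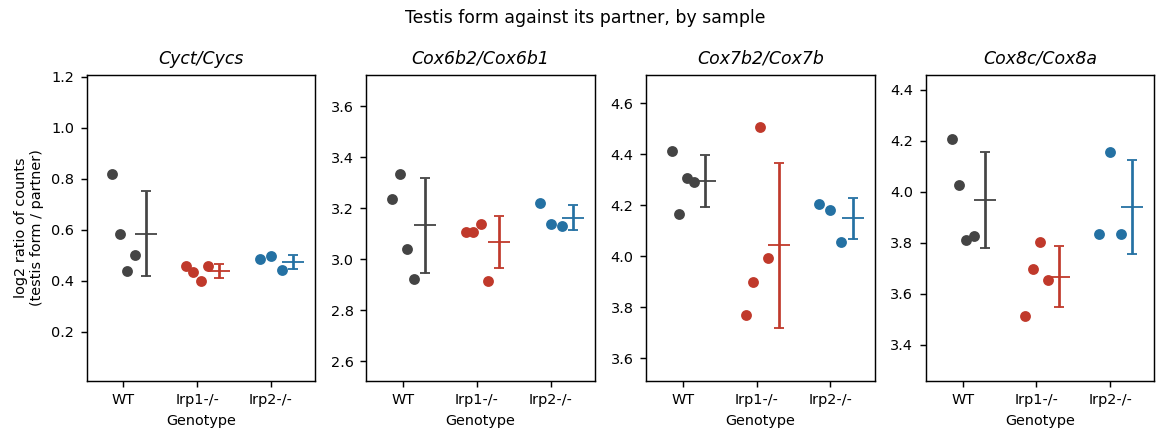
The log2 ratio of counts of each testis form to its partner, 1 point per sample, with mean and SD beside the points for 4 WT, 4 Irp1-/- and 3 Irp2-/- mice; each panel spans 1.2 log2 units. For Cox8c/Cox8a all 4 Irp1-/- samples lie below the WT and Irp2-/- samples, and in the other panels the genotypes overlap.

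Across the 44 genes, no transcript differed between genotypes at an adjusted p under 0.05 by edgeR's quasi-likelihood test, and none did by DESeq2. Between Irp1-/- and WT, 1.02% of all tested genes passed this threshold (164 of 16002). Between Irp2-/- and WT the share was 1.21% and between Irp1-/- and Irp2-/- it was 4.69%. With a block for the replicate number, 1 of the 44 passed between Irp1-/- and WT (Cox8a, edgeR adjusted p = 0.0424). That fit called 439 genes in all, against 164, and replicate numbers were not taken to pair samples. At an unadjusted p under 0.05, 7 of the 44 were found between Irp1-/- and WT by edgeR and 5 by DESeq2, beside 12.1% of all genes. Between Irp2-/- and WT it was 1 of 44 by either tool, beside 9.42% of all genes. Between Irp1-/- and Irp2-/- it was 1 of 44 by edgeR and 0 by DESeq2, beside 16.3% of all genes. Shares of all genes at an unadjusted p, here and below, are from edgeR, and none was computed for DESeq2. Samples of the 2 genotypes did not overlap for 5 of 44 genes between Irp1-/- and WT (6.63% of all genes), for 2 between Irp2-/- and WT (9.23%) and for 2 between Irp1-/- and Irp2-/- (15.2%). Without WT replicates 1 and 2, 3 of the 44 had an unadjusted p under 0.05 between Irp1-/- and WT (Cox6b2, Ndufs7 and Uqcrb), beside 10.8% of all genes, 1 did between Irp2-/- and WT (Uqcrb), beside 7.52%, and 0 passed the adjusted threshold. The comparisons of Irp1-/- and Irp2-/- with WT share the same 4 WT samples.

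The fitted differences were small and narrowly bounded. The median log2 fold change of the 44 genes was -0.01 between Irp1-/- and WT, 0.01 between Irp2-/- and WT and 0.002 between Irp1-/- and Irp2-/-, beside medians over all tested genes of -0.0008, 0.0033 and -0.0019. In the 3 comparisons, the 95% interval of the log2 fold change lay within -0.5 and 0.5 for 42, 43 and 43 of the 44 genes. It lay within -0.25 and 0.25 for 37, 37 and 38. The genes whose interval passed 0.5 were Ndufs5 and, between Irp1-/- and WT, Cox7b. The summed level of the 12 complex IV genes was 1077 ± 4.89 CPM in WT, 1087 ± 40.1 in Irp1-/- and 1082 ± 59.1 in Irp2-/- testes (SD, n = 4, 4 and 3), and that of the 20 complex I genes was 1079 ± 26.0, 1068 ± 35.2 and 1082 ± 72.5 CPM.

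**Figure D3:**
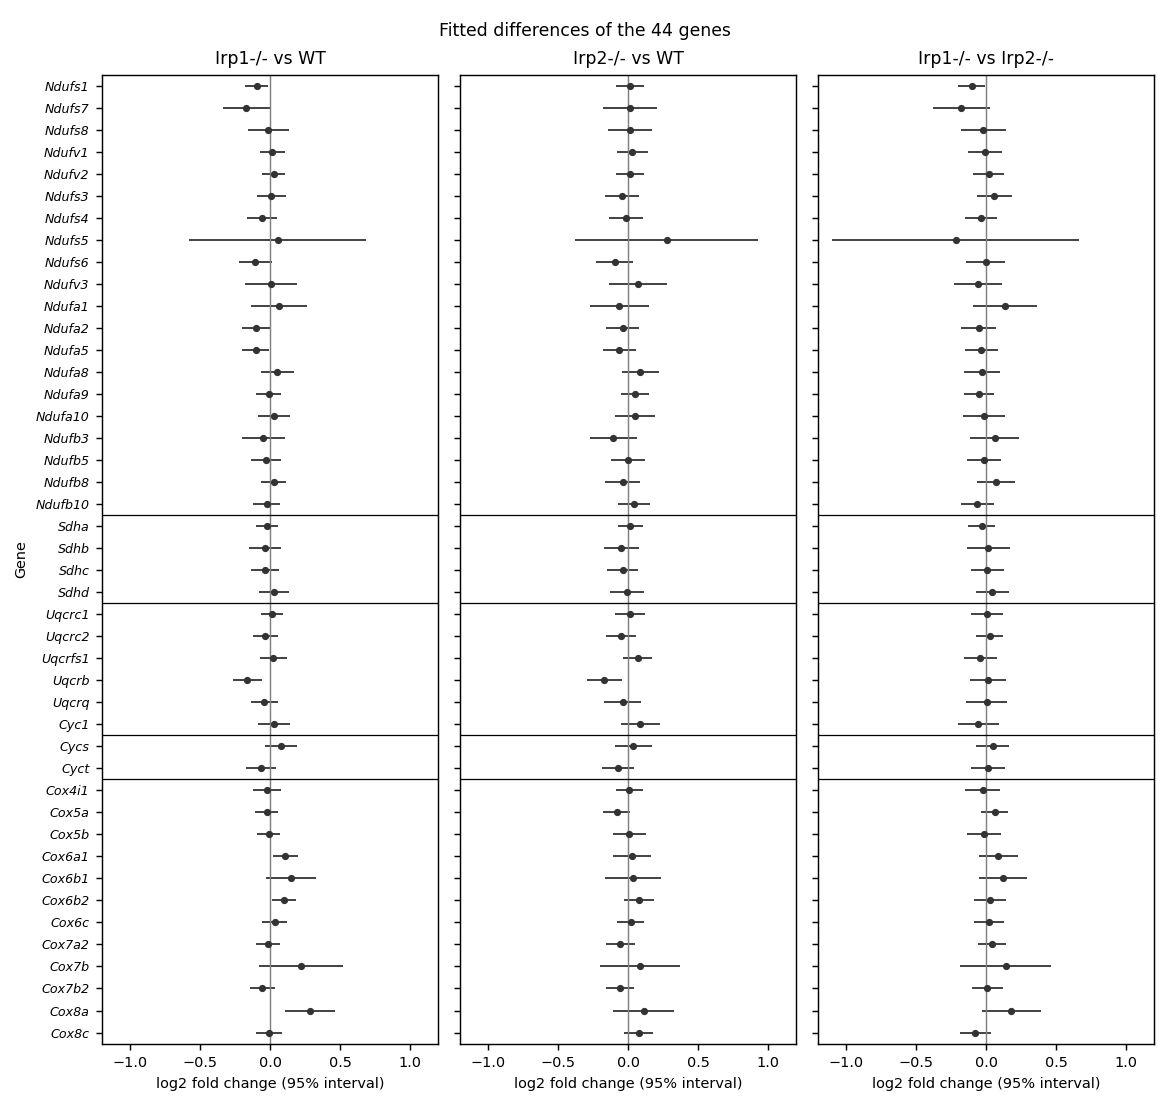
Fitted log2 fold change and 95% interval (edgeR) of each of the 44 genes in the 3 comparisons, with lines between the complexes. Most intervals are narrow and cross 0, and that of Ndufs5 is the widest, from -0.58 to 0.69 between Irp1-/- and WT.

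Transcripts of this group varied little between samples of a genotype. The median within-genotype SD of log2 CPM was 0.078 for the 44 genes and 0.117 for the 16406 genes that passed the count filter over all 11 samples. This is given as a description, as the 2 sets were not matched for transcript level. For 41 of the 44, the highest of the 11 samples was less than 1.5 times the lowest. The steadiest were Ndufs1, which carries iron-sulfur clusters of the complex I electron path, and Sdha, the flavoprotein of succinate dehydrogenase, which ranged over 1.11-fold and 1.07-fold. The most variable were Ndufs5 (2.41-fold), Cox7b (1.61-fold) and Ndufa1 (1.53-fold), the latter pair being the only X-linked genes of the 44. Cox7b and Ndufa1 also had low counts, 67 to 117 and 176 to 278 per sample. The next by range, Cox8a (1.47-fold) and Ndufs7 (1.46-fold), are autosomal, with 179 to 325 and 240 to 395 counts per sample. Whether chromosome or counts bear on the range was not tested. Many of the 44 moved together within a library: 33 lay above the WT mean in Irp1-/- replicate 7, 34 in Irp2-/- replicate 1 and 32 in WT replicate 4, against 10 in Irp2-/- replicate 3. The lowest numbers in the other genotypes were 12 in Irp1-/- replicate 6 and 15 in WT replicate 2. WT samples enter the mean they are set against.

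**Figure D4:**
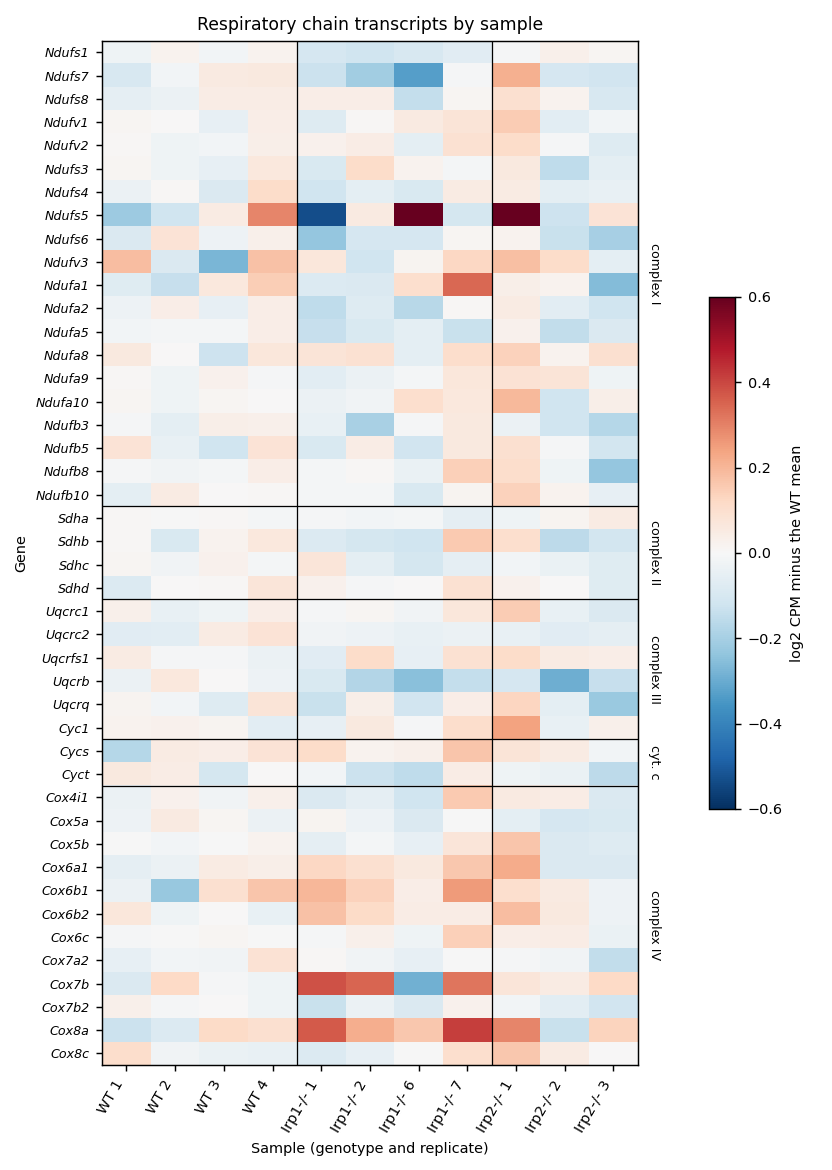
Difference of each gene's log2 CPM from its WT mean (colour, which saturates at -0.6 and 0.6) in the 11 samples, genes grouped by complex. Ndufs5 stands out in Irp1-/- replicates 1 and 6 and Irp2-/- replicate 1, and Cox8a is above its WT mean in all 4 Irp1-/- samples.

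Of complex IV, 3 of 12 genes had an unadjusted p under 0.05 between Irp1-/- and WT, all with higher values in Irp1-/- (12.1% of all genes in either direction). Cox8a, which encodes the widely used form of subunit VIII, had 15.2, 13.7, 13.2 and 15.7 CPM in Irp1-/- replicates 1, 2, 6 and 7 and 10.7, 11.1, 12.8 and 12.6 CPM in WT replicates 1 to 4. The 2 groups did not overlap, though the lowest Irp1-/- and the highest WT values were close. Its log2 fold change was 0.29 (SE 0.087, 95% interval 0.11 to 0.46, edgeR adjusted p = 0.122), and 0.19 without WT replicates 1 and 2 (interval -0.02 to 0.39, edgeR adjusted p = 0.527), which held the lowest WT values. In Irp2-/- it had 14.5, 10.7 and 12.9 CPM, values that span the WT range (log2 fold change 0.11, interval -0.11 to 0.33). Its testis counterpart Cox8c had 174 to 198 CPM in Irp1-/-, 184 to 206 in Irp2-/- and 179 to 198 in WT, with a log2 fold change of -0.01 between Irp1-/- and WT (interval -0.10 to 0.08).

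Of the other complex IV partners, Cox6b1 had a log2 fold change of 0.15 (interval -0.03 to 0.33) and Cox7b one of 0.22 (interval -0.08 to 0.52) between Irp1-/- and WT, and neither passed an unadjusted p of 0.05. Without WT replicates 1 and 2 the log2 fold change of Cox6b1 was 0.03 (interval -0.16 to 0.22) and that of Cox7b 0.24 (interval -0.14 to 0.62). Cox7b had 5.39, 5.26, 3.34 and 5.15 CPM in Irp1-/- replicates 1, 2, 6 and 7 and 3.86 to 4.47 CPM in WT, so 3 Irp1-/- samples lay above all WT samples and replicate 6 below them. The testis form Cox6b2 had 134, 129, 123 and 122 CPM in Irp1-/- and 124, 117, 119 and 115 CPM in WT, which overlapped (log2 fold change 0.10, interval 0.01 to 0.18, adjusted p = 0.339, edgeR). The testis form Cox7b2 had a log2 fold change of -0.06 (interval -0.15 to 0.03). Cox6a1, the widely used form of subunit VIa, had 75.6, 74.1, 72.3 and 77.7 CPM in Irp1-/- and 66.8, 67.8, 71.9 and 71.2 CPM in WT, with no overlap (log2 fold change 0.11, interval 0.02 to 0.20, adjusted p = 0.285, edgeR, and 0.07, interval -0.04 to 0.18, without WT replicates 1 and 2). In Irp2-/- it had 80.9, 65.3 and 65.4 CPM, so that replicate 1 stood above all other samples, and without that replicate Cox6a1 was higher in Irp1-/- than in Irp2-/- by 0.20 on the log2 scale (edgeR adjusted p = 0.0342, the one call among the 44 when single samples were left out; with all samples 0.09, adjusted p = 0.58).

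Markers of other testis cell types were summed in the same samples. Beside the counts of markers below, 1.02% of all genes passed the adjusted threshold between Irp1-/- and WT (edgeR). At an unadjusted p under 0.05 the share of all genes was 12.1% (edgeR). The 7 Sertoli cell markers summed to 1087 to 1217 CPM in Irp1-/-, 978 to 1119 in Irp2-/- and 973 to 1052 in WT. All 7 had a positive log2 fold change between Irp1-/- and WT (1 past the adjusted threshold, Clu, and 3 at an unadjusted p under 0.05). The 6 Leydig cell markers summed to 917 to 1117 CPM in Irp1-/-, 709 to 919 in Irp2-/- and 683 to 966 CPM in WT, and all 6 had a positive log2 fold change between Irp1-/- and WT (0 past it by edgeR, 1 by DESeq2, and 2 at an unadjusted p under 0.05). These WT values include replicates 1 and 2, the libraries low in Cyp17a1 and Cyp11a1. In WT replicates 3 and 4, Cyp17a1 had 238 and 192 CPM, against 205 to 300 CPM in Irp1-/-. Cyp11a1 had 84.3 and 75.4 CPM there, against 78.7 to 113 CPM in Irp1-/-. Hsd3b1 had 37.1 and 42.7 CPM there, below the 44.9 to 53.0 CPM of Irp1-/-. The other listed Leydig cell markers overlapped. Star had 82.0 and 102 CPM in WT replicates 3 and 4, against 50.7 to 119 CPM in Irp1-/-. Lhcgr had 5.17 and 4.70 CPM, against 4.02 to 5.40 CPM, and Insl3 had 519 and 496 CPM, against 501 to 551 CPM. Of 5 macrophage markers, 4 had a positive log2 fold change (median 0.02), and of 3 peritubular myoid cell markers 2 did (median 0.08), with 0 past the threshold by edgeR or DESeq2 in either list and 1 and 0 at an unadjusted p under 0.05. The 4 blood markers summed to 21.2 to 38.3 CPM in Irp1-/-, 8.42 to 22.5 in Irp2-/- and 15.2 to 20.0 in WT, with Hbb-bs at 0 in every sample. Of 8 spermatocyte markers, 7 had a negative log2 fold change (0 past the adjusted threshold by edgeR and by DESeq2, 3 at an unadjusted p under 0.05). The other germ cell lists were mixed. A negative log2 fold change was found for 4 of 6 spermatogonia markers (median -0.02), 2 of 6 of round spermatids (median 0.02) and 3 of 5 of elongating spermatids (median -0.03). In these 3 lists 0 passed by edgeR or DESeq2, with 0, 0 and 1 at an unadjusted p under 0.05 (edgeR). The part of any of these cell types in the values of Cox8a and Cox6a1 was not tested.

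The remaining complex IV genes had unadjusted p-values above 0.05 in every comparison. Cox5a, a matrix-side subunit, was lower in all 3 Irp2-/- samples (119, 115 and 116 CPM) than in the 4 WT samples (121 to 129 CPM), with a log2 fold change of -0.08 (interval -0.18 to 0.01). Cox5a is also the nearest of the 44 genes to Ireb2, the gene deleted in these mice, at 2.66 Mb on chromosome 9. Cox4i1, Cox5b, Cox6c and Cox7a2 had log2 fold changes between -0.06 and 0.03 against WT in both knockouts.

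Of complex III, Uqcrb, a small subunit at the ubiquinone-binding side, had the most negative log2 fold change against WT in both knockouts. It had 41.5, 39.1, 37.1 and 40.0 CPM in Irp1-/-, 41.2, 36.0 and 40.1 CPM in Irp2-/- and 43.1, 46.2, 44.2 and 43.2 CPM in WT. All 7 knockout samples thus lay below all 4 WT samples, which both comparisons share. The log2 fold change was -0.16 (SE 0.051, interval -0.27 to -0.06, adjusted p = 0.128, edgeR) between Irp1-/- and WT and -0.17 (SE 0.060, interval -0.30 to -0.05, adjusted p = 0.256, edgeR) between Irp2-/- and WT, and 0.01 (interval -0.12 to 0.14) between the knockouts. Of the 486 stretches of 50 bases in Uqcrb transcripts, 43.2% occur in other annotated genes (Gm16089, Gm19326, Gm2962 and Gm5457), so part of its reads may have been assigned elsewhere. The iron-sulfur protein Uqcrfs1 (Rieske protein) had log2 fold changes of 0.02 (interval -0.08 to 0.12) and 0.07 (interval -0.03 to 0.17) against WT in Irp1-/- and Irp2-/-. Uqcrc2, a core protein, was higher in all Irp1-/- than in all Irp2-/- samples, by only 0.02 on the log2 scale. Cyc1, the heme-bearing cytochrome c1, and Uqcrc1 and Uqcrq lay within -0.04 and 0.09 of WT on the log2 scale in both knockouts.

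The 5 complex I genes that encode iron-sulfur or flavin-bearing core subunits were of interest because IRP1 itself binds an iron-sulfur cluster. Ndufs1 had 82.4, 81.3, 82.6 and 84.4 CPM in Irp1-/-, 87.8, 90.1 and 89.0 CPM in Irp2-/- and 86.8, 89.7, 87.4 and 89.6 CPM in WT. All Irp1-/- samples lay below all others. The log2 fold change was -0.10 between Irp1-/- and WT (interval -0.18 to -0.01, adjusted p = 0.309, edgeR) and -0.10 between Irp1-/- and Irp2-/- (interval -0.20 to -0.01, adjusted p = 0.258, edgeR). Ndufs7, which holds the last cluster before ubiquinone, had 13.9, 13.1, 12.0 and 15.1 CPM in Irp1-/- and 14.2 to 15.8 CPM in the 4 WT samples, groups that overlapped (log2 fold change -0.17, interval -0.34 to -0.003, adjusted p = 0.397, edgeR). In Irp2-/- it had 17.6, 14.1 and 14.0 CPM, with a log2 fold change of 0.01 (interval -0.18 to 0.20). Ndufs8, Ndufv1 and Ndufv2 had log2 fold changes between -0.01 and 0.03 against WT in both knockouts. Sdhb, the iron-sulfur subunit of complex II, had -0.04 (interval -0.15 to 0.08) and -0.05 (interval -0.18 to 0.08).

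The other complex II genes, Sdha and the membrane anchors Sdhc and Sdhd, lay within -0.04 and 0.03 of WT on the log2 scale in both knockouts. Both cytochrome c genes were within the spread of the samples. Cycs had log2 fold changes of 0.08 (interval -0.04 to 0.19) in Irp1-/- and 0.04 (interval -0.09 to 0.17) in Irp2-/- against WT, and Cyct -0.07 (interval -0.17 to 0.04) and -0.07 (interval -0.19 to 0.04). Of the 50-base stretches of Cycs, 28.2% occur in other genes, and none of those of Cyct do.

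Of the 14 accessory complex I genes, 1 had an unadjusted p under 0.05 between Irp1-/- and WT. Ndufa5, on the peripheral arm of the complex, had 43.0 to 45.5 CPM in Irp1-/- and 46.8 to 48.6 CPM in WT, with no overlap (log2 fold change -0.10, interval -0.20 to -0.01, adjusted p = 0.357, edgeR), and 48.3, 42.7 and 44.6 CPM in Irp2-/-. Ndufs6, needed for late assembly of the same arm, had log2 fold changes of -0.10 in both knockouts (intervals -0.22 to 0.01 and -0.23 to 0.03). X-linked Ndufa1 had 10.1 to 15.3 CPM over all samples and log2 fold changes of 0.07 (interval -0.13 to 0.27) and -0.06 (interval -0.27 to 0.15).

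Ndufs5, an accessory subunit on the intermembrane side, was named after its values were seen, because it was the most variable of the 44 genes. It lies on chromosome 4 (123712710 to 123718186 on GRCm38), 83.6 Mb from Aco1. It had 18.4, 27.7, 40.5 and 24.8 CPM in Irp1-/- replicates 1, 2, 6 and 7, 44.3, 24.4 and 28.2 CPM in Irp2-/- replicates 1 to 3, and 22.9, 24.5, 27.5 and 32.6 CPM in WT replicates 1 to 4. Irp1-/- replicate 6 and Irp2-/- replicate 1 were thus higher than every other sample, and only the former carries the letter R in its label. Of its 50-base stretches, 22.9% (196 of 855) also occur in BC002163, a processed pseudogene on chromosome 16 (42955631 to 42955949 on GRCm38) that has its own row of counts. The coding sequence of Ndufs5 (318 bases) and the pseudogene differ at 2 aligned bases, with an identical run of 213 bases. The 120 bases from base 82 of the Ndufs5 coding sequence are shown with the single difference in capitals, because reads that do not cover a difference match both genes.
Ndufs5: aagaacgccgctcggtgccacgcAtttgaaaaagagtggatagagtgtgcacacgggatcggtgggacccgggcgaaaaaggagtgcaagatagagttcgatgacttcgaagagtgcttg
BC002163: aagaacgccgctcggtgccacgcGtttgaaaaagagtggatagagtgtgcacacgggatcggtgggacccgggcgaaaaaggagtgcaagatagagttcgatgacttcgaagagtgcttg

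The counts of BC002163 ran opposite to those of Ndufs5 in both of these samples. The pseudogene had 1.70 CPM (34 counts) in Irp1-/- replicate 6 and 1.25 CPM (28 counts) in Irp2-/- replicate 1, against 13.1 to 21.3 CPM in the other 9 samples (249 to 408 counts). The sum of both genes lay between 38.3 and 48.6 CPM over the 11 samples, a range of 1.27-fold where Ndufs5 alone ranged over 2.41-fold and BC002163 over 17.1-fold. The sum was 42.7 ± 2.47 CPM in Irp1-/-, 43.4 ± 2.10 in Irp2-/- and 43.3 ± 4.19 in WT testes (SD, n = 4, 3 and 4). When the counts of BC002163 were added to Ndufs5 before the fit, the log2 fold change between Irp1-/- and WT went from 0.05 (interval -0.58 to 0.69) to -0.02 (interval -0.15 to 0.10), that between Irp2-/- and WT from 0.27 (interval -0.38 to 0.93) to 0.01 (interval -0.13 to 0.15), and that between the knockouts from -0.22 (interval -1.10 to 0.66) to -0.03 (interval -0.15 to 0.10). The counts do not tell transcripts of the pseudogene from reads of Ndufs5 placed there, and which of these the values reflect was not tested.

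**Figure D5:**
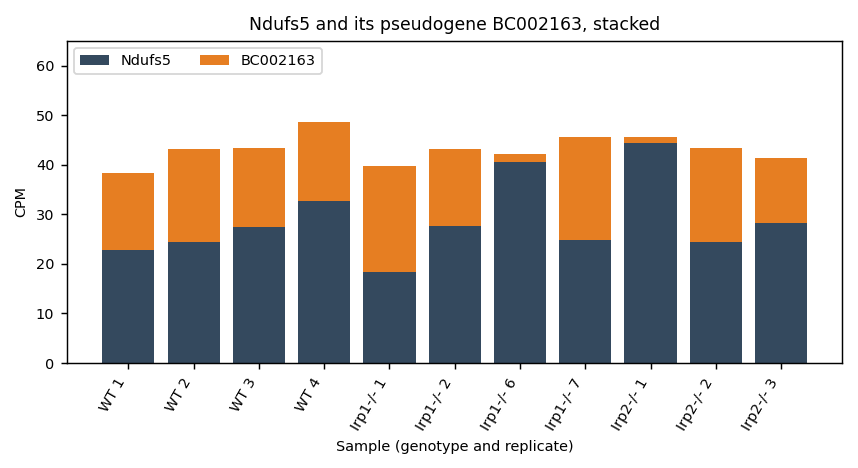
CPM of Ndufs5 (lower part of each bar) and of the pseudogene BC002163 (upper part), stacked, in the 11 samples. BC002163 is near 0 in Irp1-/- replicate 6 and Irp2-/- replicate 1, where Ndufs5 is highest, and the full bars stay between 38.3 and 48.6 CPM.

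Genes beyond the 44 were examined from a list of 100 further chain genes (remaining subunits of complexes I, III and IV, complex V, assembly factors and the 13 genes of the mitochondrial genome, the last not analysed here). Of the 83 tested between Irp1-/- and WT, 0 passed the adjusted threshold by edgeR or DESeq2 and 3 had an unadjusted p under 0.05 by edgeR (2 by DESeq2), beside 12.1% of all genes, with a median log2 fold change of 0.003. Of the 82 tested between Irp2-/- and WT and the 83 between the knockouts, 0 passed by either tool and 3 each had an unadjusted p under 0.05 by edgeR (1 each by DESeq2), beside 9.42% and 16.3% of all genes, with medians of 0.01 and 0.004. Ndufb6, a complex I gene on the same chromosome as Aco1, had a log2 fold change of 0.03 between Irp1-/- and WT (interval -0.14 to 0.20).

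Upstream sequence was read for the 34 of 44 genes with an entry in the set of promoter sequences used (GRCm38.p6), as the 250 bases before each start, in 35 windows. The cAMP response element TGACGTCA, which CREM and its relatives bind in germ cells, was held by the windows of Cycs, Ndufa10 and Uqcrfs1, which is 8.57% of the 35 windows and 1.55% of all 32851 windows of that length. The windows of the testis forms Cyct, Cox6b2 and Cox7b2 did not hold these letters, and that of Cox7b2 held the shorter motif TGACG, found in 37.1% of the 35 windows and 17.8% of all. The testis form Cox8c had no entry in that set, so its upstream sequence was not read. The NRF1 motif (GCGC, any base, then TGCGC), named for a regulator of respiratory chain genes, was held by 22.9% of the 35 windows, among them those of Cox6a1, Sdha and Ndufs5, and by 3.74% of all, and the CCAAT box by 40.0% and 33.8%. Both strands were searched, and TGACG is part of TGACGTCA. The Cycs window (chr6:50566570-50566819, minus strand) is shown with every TGACGTCA, TGACG and CCAAT match, on either strand, in capitals, because Cycs is the partner in the pair with the lowest testis to partner ratio.
Cycs: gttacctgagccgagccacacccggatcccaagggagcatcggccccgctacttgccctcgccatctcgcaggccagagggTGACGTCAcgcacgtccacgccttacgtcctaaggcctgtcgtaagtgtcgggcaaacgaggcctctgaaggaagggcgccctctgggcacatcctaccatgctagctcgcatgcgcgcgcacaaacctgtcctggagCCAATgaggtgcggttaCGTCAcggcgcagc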

How the data were processed

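The study sequenced whole testis RNA as paired-end reads from 11 mice. The authors deposited raw counts per gene, for which they ran the RNA-seq workflow of nf-core on mm10; the counting tool and its strand setting are not given in the sources used here, and all 11 columns of counts were used. The submitters' processing notes name bcl2fastq 2.20.0.422 and DESeq2. A counter that splits or drops reads shared with copies changes the values of such genes. Samples were grouped by their labels. The 44 genes and the other lists were chosen with earlier results of these data known.

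Counts were fitted over all genes with edgeR 4.0.16 in R 4.3.3 (filterByExpr, TMM scaling, robust quasi-likelihood test, Benjamini-Hochberg adjustment over all genes tested, threshold 0.05), using the samples of the 2 genotypes compared, and the code was tested on simulated data. Total counts of 15902473 to 22451417 set the precision. Log2 ratios of counts were compared by two-sided exact permutation tests. Exon lengths, transcripts and shared 50-base stretches came from GENCODE M21. Alternatives were RLE scaling, other count filters, DESeq2 1.42.0, all 11 samples in 1 fit, a block for the replicate number, 1 count added to ratios, leaving out each sample, and, chosen after seeing the data, BC002163 added to Ndufs5, WT replicates 1 and 2 left out, and another transcript length. Named were the isoform pairs, the genes of iron-sulfur subunits, X-linked genes, and per comparison the 3 genes with the smallest p in each direction, but Ndufs5, BC002163, Ndufb6, Cox4i1 and others given by range were added to describe all 44.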

Additional observations from a re-analysis of the deposited data

Results flagged for a closer look

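In groups of 4 samples, WT and Irp1-/-, the highest or lowest sample stood apart from the other 3 (by Dixon's ratio at its 95% critical value) in 7 of the 96 groups examined (44 genes and 4 log2 ratios, in 2 genotypes), where chance gives 4.8. Irp1-/- replicate 6 was low for Cox7b (3.34 CPM, others 5.15 to 5.39) and for Ndufs8 (16.3 CPM, others 18.2 to 18.5). Irp1-/- replicate 7 was high for Sdhb (71.8 CPM, others 59.1 to 60.8) and low for the log2 ratio of Cox6b2 to Cox6b1 (2.92, others 3.11 to 3.14). WT replicate 4 was high for Ndufa5 (48.6 CPM, others 46.8 to 47.0) and low for Cyc1 (28.3 CPM, others 29.8 to 30.1). WT replicate 1 was high for Cox8c (198 CPM, others 179 to 181). The 3 Irp2-/- samples were too few for this rule.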

How the results depend on the processing

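No gene of the 44 passed the adjusted threshold under RLE scaling, either other count filter, DESeq2, the fit of all 11 samples or BC002163 added to Ndufs5. Over all alternatives the adjusted p of Cox8a between Irp1-/- and WT (edgeR or DESeq2) was 0.0424 to 0.527, the highest without WT replicates 1 and 2. Depth limits Cox7b most, at 3.34 to 5.39 CPM. Replicate numbers 1 and 2 (and 3 for Irp2-/- and WT) are shared, but deviations of same-numbered samples correlated at only -0.01 to 0.08, so the numbers were not taken to pair samples. With a block for the replicate number, which for Irp1-/- rests on numbers 1 and 2, all genes called between Irp1-/- and WT went from 164 to 439, 1 of the 44 passed (Cox8a, 0.40, adjusted p = 0.0424), the median between the knockouts was -0.0444, and values near 0 changed sign: between Irp1-/- and WT Ndufs8 to 0.083, Ndufv1 to -0.040, Uqcrfs1 to -0.0022 and Ndufs5 to -0.056, and between the knockouts Cyct to -0.036, Cox7b2 to -0.041, Ndufv2 to -0.013, Sdhb to -0.062 and Ndufa1 to -0.111. With BC002163 added, Ndufs5 between Irp1-/- and WT was -0.024. Without WT replicates 1 and 2, chosen after seeing the data for their low Cyp17a1 and Cyp11a1, 0 of 44 passed against WT. The median between Irp2-/- and WT was -0.017. These log2 values changed sign: between Irp1-/- and WT Cox8c to 0.036, Ndufa1 to -0.034, Ndufs5 to -0.106 and the ratio Cox6b2/Cox6b1 to 0.086, and between Irp2-/- and WT Cycs to -0.023, Cox6b1 to -0.087, Ndufs7 to -0.042, Ndufs8 to -0.030 and the ratios Cyct/Cycs to 0.0048 and Cox8c/Cox8a to 0.122.

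Leaving out each sample in turn gave 0 to 1 of 44 past the threshold between the knockouts (1 without Irp2-/- replicate 1, Cox6a1) and 0 in the comparisons with WT. The median ranged from -0.0438 to 0.0402 between Irp2-/- and WT and from -0.0262 to 0.0542 between the knockouts. The log2 ratio differences between Irp1-/- and WT ranged from -0.196 to -0.0692 for Cyct/Cycs and from -0.406 to -0.161 for Cox7b2/Cox7b. Those that changed sign ranged from -0.135 to 0.00132 for Cox6b2/Cox6b1 between Irp1-/- and WT, and between Irp2-/- and WT from -0.0392 to 0.0975 for Cox6b2/Cox6b1 and from -0.135 to 0.0521 for Cox8c/Cox8a. Fold changes that changed sign on leaving out a sample had these log2 ranges. Between Irp1-/- and WT they were -0.0432 to 0.0304 for Cox8c, -0.00844 to 0.0527 for Uqcrfs1, -0.031 to 0.0302 for Ndufs8, -0.187 to 0.208 for Ndufs5, -0.000269 to 0.0462 for Ndufv1 and -0.0244 to 0.12 for Ndufa1. Between Irp2-/- and WT they were -0.108 to 0.0671 for Ndufs7, -0.0341 to 0.0561 for Ndufs8, -0.0385 to 0.0754 for Ndufv1, -0.0389 to 0.0493 for Ndufv2, -0.0296 to 0.442 for Ndufs5, -0.133 to 0.00482 for Sdhb, -0.116 to 0.0197 for Ndufa1, -0.0203 to 0.0655 for Cycs and -0.036 to 0.0933 for Cox6b1. Between the knockouts they were -0.0266 to 0.0365 for Cyct, -0.0197 to 0.0829 for Cox6b2, -0.0555 to 0.0584 for Ndufv1, -0.0648 to 0.0255 for Ndufs8, -0.0208 to 0.0329 for Cox7b2, -0.0197 to 0.0686 for Ndufv2, -0.0535 to 0.0975 for Sdhb and -0.459 to 0.0863 for Ndufs5. The causes were not tested.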
